A study of Mus musculus with 14 samples.

Results

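Mesothelin and 5 genes of epithelial surface defence, Msln, Slpi, Lcn2, Wfdc2, Muc1 and Ltf, were followed in tumours and cultures of 4T1 cells, a mouse triple-negative mammary carcinoma line of BALB/c origin, in which TAZ had been knocked down. The 6 genes were taken by symbol. All 6 were among the 13414 genes listed for the tumours and 5 were among the 11793 listed for the cultures, where Ltf was not listed. They were chosen by name with their levels in these tumours and cultures known, shTAZ over shC included, so their differences between shTAZ and shC, and between tumours and cells, are given as a description, with standard errors and no test.

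TAZ, encoded by Wwtr1, is a transcriptional co-activator of the Hippo pathway. Both lines carried a doxycycline-inducible hairpin introduced by lentivirus, control (shC) or against TAZ (shTAZ), and were kept as cell pools, not single clones. The groups sequenced were 4 shC tumours, 4 shTAZ tumours, 3 shC cultures (shC cells) and 3 shTAZ cultures (shTAZ cells). By the study's methods, cells received doxycycline for 48 h before injection into the mammary fat pad of female BALB/c mice aged 8 weeks, the mice were fed chow with 625 mg/kg doxycycline, and tumours were taken 6 weeks after injection. In the in vitro experiments the exposure was 48 h. The hairpin acts in the injected cells, whereas a tumour library also holds RNA of host cells with intact Wwtr1. The sample labels give no treatment and call the genotype wild type. Whether each library was a separate animal or a separate culture is not stated, so that p-values measure the spread between libraries.

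Epithelia that face the outside protect themselves with secreted antiproteases, iron-binding proteins and mucins. Slpi and Wfdc2 encode small secreted proteins with whey acidic protein (WAP) domains, and SLPI inhibits the neutrophil serine proteases elastase and cathepsin G. Lcn2 encodes lipocalin-2, which captures the siderophores with which bacteria collect iron, and Ltf encodes lactoferrin, an iron-binding protein of milk and of neutrophil granules. Muc1 encodes a transmembrane mucin of the apical cell surface. Msln encodes mesothelin, a surface glycoprotein with a lipid anchor, cut from its precursor by furin, made by normal mesothelium and by many carcinomas.

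The hairpin sequences are shown because every shTAZ comparison rests on them, with the strand given by the study and the stretch that matches Wwtr1 in capitals.
shTAZ: GACGGGTGGAGGTTCACAT
shC: cacacaacatgtaaaccaggga
The shTAZ sequence was antisense to 2 Wwtr1 transcripts of GENCODE M21 and lay in the coding part of exon 3, on the reverse-strand gene at GRCm38 chr3:57501788-57501806. The shC sequence had no exact match on either strand of 141767 annotated transcripts. Neither therefore matched a transcript of the 6 genes exactly.

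On GRCm38, Msln lies on chromosome 17 at 25748613-25754378 (reverse strand), and Muc1 on chromosome 3 at 89229057-89233381 (forward). Chromosome 2 holds Lcn2 at 32384633-32388252 (reverse), Slpi at 164354070-164389095 (reverse) and Wfdc2 at 164562413-164568510 (forward). Ltf lies on chromosome 9 at 111019271-111042767 (forward). In the GENCODE annotation Slpi overlaps Mir7678, and none of the others overlaps another gene.

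Slpi and Lcn2 were higher in tumours than in cells of both lines, at counts well above those of Muc1, and their upstream sequences are shown for that reason, beside that of Ltf, whose product, like lipocalin-2, keeps iron from bacteria. Each run is the 250 bases before the RefSeq start (GRCm38.p6), read along the gene's strand, with capitals marking the letters TTGCNNAA, the motif of C/EBP factors, on either strand.
Lcn2, chr2:32387740-32387989, reverse strand: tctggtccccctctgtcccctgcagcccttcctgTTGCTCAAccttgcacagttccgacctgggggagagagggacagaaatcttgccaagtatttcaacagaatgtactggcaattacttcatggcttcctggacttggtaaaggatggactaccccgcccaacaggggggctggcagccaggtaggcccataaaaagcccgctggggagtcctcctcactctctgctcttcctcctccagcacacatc
Slpi, chr2:164356508-164356757, reverse strand: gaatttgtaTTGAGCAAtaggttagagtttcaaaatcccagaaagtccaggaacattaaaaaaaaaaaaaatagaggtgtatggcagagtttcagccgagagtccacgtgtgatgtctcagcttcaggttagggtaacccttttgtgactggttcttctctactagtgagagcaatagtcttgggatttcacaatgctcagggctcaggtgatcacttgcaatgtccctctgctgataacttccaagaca
Ltf, chr9:111019042-111019291, forward strand: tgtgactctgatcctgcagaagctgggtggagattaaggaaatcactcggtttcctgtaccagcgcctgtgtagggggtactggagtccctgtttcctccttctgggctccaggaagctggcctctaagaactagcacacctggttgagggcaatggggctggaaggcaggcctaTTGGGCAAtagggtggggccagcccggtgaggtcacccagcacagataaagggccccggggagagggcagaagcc
The motif began at base -216 in Lcn2, -241 in Slpi and -75 in Ltf. It was found in 10.8% of 32851 mouse promoter windows of 300 bases. No match was found in the windows of Wfdc2 or Muc1. The Muc1 window held GGAATG, the motif of TEAD factors, the DNA-binding partners of TAZ, at base -132, as did 14.7% of all windows. AP-1 letters (TGANTCA) and the NF-kB motif were found in none of the windows of the 5 genes, and in 7.81% and 4.51% of all windows. No window was used for Msln.

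Total counts ran from 2282612 to 22364483 in shC tumours and from 1659736 to 3179767 in shTAZ tumours. They ran from 6820673 to 14815813 in shC cells and from 2243071 to 7959163 in shTAZ cells. Levels below are CPM, a gene's read count scaled to a common TMM-normalised library size, computed for tumours and cultures separately unless stated. Wwtr1 stood at 59.9, 29.2, 43.1 and 27.5 CPM in shC tumours 1 to 4 and at 22.1, 13.4, 17.5 and 25.5 CPM in shTAZ tumours 1 to 4. The highest shTAZ tumour was below the lowest shC tumour, with a log2 fold change of -1.03 (SE 0.30, edgeR adjusted p 0.923), which was not called. In cells it stood at 40.6, 29.7 and 25.4 CPM in shC and at 8.12, 10.5 and 6.02 CPM in shTAZ, a log2 fold change of -2.11 (SE 0.32, edgeR adjusted p 0.035). Epithelial markers were present in all libraries, with sums of 3877 to 7005 CPM in tumours (13 genes listed) and 3977 to 9486 CPM in cultures (12 genes listed).

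Of the 8 tumours, 3 stood apart by markers of other tissues. In shC tumour 2, smooth muscle markers summed to 8623 CPM and urothelial markers to 673 CPM, against 279 to 533 CPM and at most 9.1 CPM in the other 7. Epidermal markers summed to 3753 CPM in shTAZ tumour 3 and 2035 CPM in shTAZ tumour 4, against 16.0 to 40.5 CPM in the other 6. The fitted shTAZ over shC values in tumours are therefore also given with these 3 tumours left out, an alternative chosen after seeing the data.

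**Figure D1:**
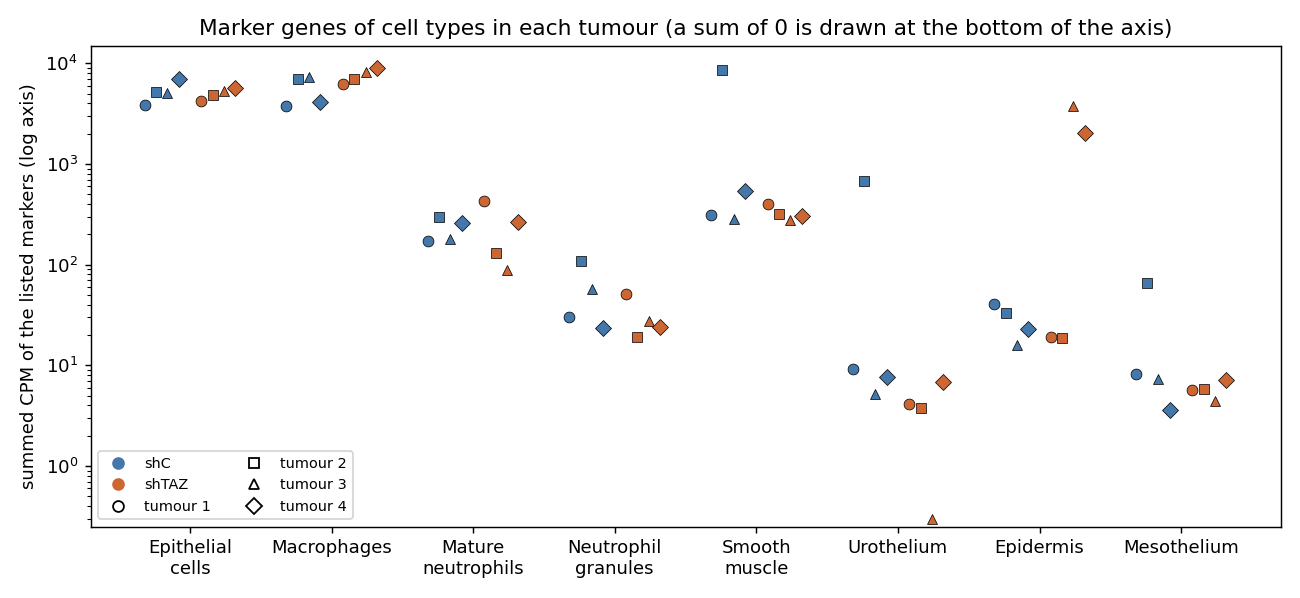
Summed CPM (log axis) of marker genes of 8 cell types, the 6 members left out, in each of 4 shC (blue) and 4 shTAZ (orange) tumours, with 1 point per tumour. Smooth muscle, urothelium and mesothelium are highest in shC tumour 2, and epidermis stands at 3753 CPM in shTAZ tumour 3 and 2035 CPM in shTAZ tumour 4.

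Msln was the member with the largest fitted difference between shTAZ and shC tumours, and its level was lower in shTAZ. It stood at 55.7, 100.27, 132 and 69.0 CPM in shC tumours 1 to 4. In shTAZ tumours 1 to 4 it stood at 30.7, 52.4, 27.5 and 59.0 CPM. The groups overlapped narrowly, because shTAZ tumour 4 was above shC tumour 1, while the other 3 shTAZ tumours were below every shC tumour. Means were 89.3 ± 34.2 CPM (SD, n = 4) for shC and 42.4 ± 15.7 CPM (SD, n = 4) for shTAZ, and the log2 fold change was -1.06 (SE 0.32). No gene of the 9196 tested passed an edgeR adjusted p of 0.05 in this contrast (0.0% called), so no member was called. At an unadjusted p under 0.05 there were 366 genes, and DESeq2 called 4. Groups did not overlap for 2.39% of genes tested (1.4% higher, 0.99% lower in shTAZ), and for none of the 5 members tested. In a bulk tumour, fewer cells that make a transcript and less of it per cell cannot be told apart.

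The direction of Msln was the same within both prefixes of the library codes, -0.89 on the log2 scale within tumours 1 and 2 and -1.23 within tumours 3 and 4. Without the 3 tumours that stood apart the log2 fold change was -1.05 (SE 0.43), and it was negative in 17 of 17 alternatives, from -1.27 to -0.80. Mesothelium makes Msln. The mesothelial marker sum was 65.8 CPM in shC tumour 2 and 3.6 to 8.2 CPM in the other 7 tumours, and Upk3b and Tcf21 were above 0 in shC tumour 2 only. Upk3b, at 19.5 CPM there, is also among the urothelial markers, whose sum was high in that tumour. The tumour with the highest Msln, shC tumour 3, had a mesothelial sum of 7.3 CPM. Read gene by gene, 11 of 13 epithelial markers had a negative log2 fold change in shTAZ tumours, the direction of Msln. The median over the 13 was -0.86 against -0.01 over all genes, and none was called. Among them were the claudins Cldn7 (-1.91), Cldn3 (-1.28) and Cldn4 (-1.13), Krt19 (-2.10), Esrp1 (-1.16), Elf3 (-1.04) and Epcam (-0.86). Krt8 (-0.03) and Krt18 (-0.24) were nearer 0, and Krt14 (3.56) and Krt5 (3.53), keratins also made by epidermis, were positive. Summed over the 13 markers, the level had a median of 5134 CPM in shC and 5052 CPM in shTAZ tumours. This sum was highest, at 7005 CPM, in shC tumour 4, where Msln stood at 69.0 CPM. The part of mesothelial or epithelial content in the Msln difference was not tested.

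In culture the Msln levels of the lines overlapped widely. It stood at 531, 524 and 237 CPM in shC cells 1 to 3 and at 554, 364 and 350 CPM in shTAZ cells 1 to 3. Its log2 fold change was -0.18 (SE 0.21), and 0.03 (SE 0.21) with the replicate number as a block. Within pairs 1, 2 and 3 the differences were 0.06, -0.52 and 0.56 on the log2 scale, so the pairs did not share a direction. Of 8 mesothelial markers 1 was listed for cultures, at 1.43 to 8.15 CPM. Whether the difference in tumours was larger than that in cells was not tested.

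Slpi, the protease inhibitor, had its clearest difference in culture, with more in shTAZ. In shC cells 1 to 3 it stood at 61.6, 47.1 and 18.5 CPM, and in shTAZ cells 1 to 3 at 117, 90.4 and 57.0 CPM. Both lines had their lowest level in replicate 3, and the groups overlapped because shTAZ cells 3 lay just below shC cells 1. For Slpi in cells the log2 fold change was 0.82 (SE 0.23), and 1.16 (SE 0.23) with the replicate block. Within pairs 1, 2 and 3 shTAZ was higher by 0.91, 0.93 and 1.60 on the log2 scale, a mean of 1.15 ± 0.39 (SD, 3 pairs). The difference was positive in 17 of 17 alternatives, from 0.49 to 1.28. The share of genes called in cells was 0.0102% (1 of 9828), with no member among them. With the replicate block it was 0.0611% (6 genes, 0.0204% higher and 0.0407% lower), and Slpi was the 1 member among them, a call in which nothing is read because this contrast was known when the members were chosen. Groups did not overlap for 5.57% of genes tested (2.79% higher, 2.78% lower) and for none of the 4 members tested.

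In tumours Slpi stood at 372, 649, 345 and 749 CPM in shC 1 to 4 and at 314, 399, 1238 and 783 CPM in shTAZ 1 to 4. The 2 highest values among shTAZ tumours, in tumours 3 and 4, were in the 2 libraries with high epidermal marker sums. The other 2 shTAZ tumours lay within or below the range of shC. In tumours its log2 fold change was 0.37 (SE 0.42), -0.08 without shTAZ tumour 3, and -0.47 (SE 0.37) without the 3 tumours that stood apart. Within the prefixes it was -0.47 for tumours 1 and 2 and 0.95 for tumours 3 and 4, so the direction turned with the libraries used. Keratin genes of basal epithelium varied widely between tumours. Krt14 had a median of 48.7 CPM (12.5 to 164 CPM) in shC and 704 CPM (49.5 to 1787 CPM) in shTAZ tumours. Krt5 had a median of 0.898 CPM (0.361 to 76.6 CPM) in shC and 206 CPM (0.316 to 463 CPM) in shTAZ tumours. The part of epidermal RNA in the Slpi values was not tested.

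Lcn2 varied more between shTAZ tumours than any other member. It stood at 1319, 845, 603 and 1892 CPM in shC tumours 1 to 4. In shTAZ tumours 1 to 4 it stood at 2808, 676, 178 and 581 CPM, a 15.7-fold range within 1 group. The highest and the lowest of all 8 tumours were both shTAZ tumours, and the shC range lay inside theirs. For shTAZ over shC the log2 fold change was -0.13 (SE 0.67). It was -1.28 without shTAZ tumour 1 and 0.44 (SE 0.63) without the 3 tumours that stood apart, and it was positive in 6 of 17 alternatives. Within the prefixes it was 0.38 and -1.73, so no direction held. Neutrophils also make lipocalin-2. Markers of mature neutrophils summed to 172, 295, 180 and 257 CPM in shC tumours 1 to 4 and to 425, 131, 87.6 and 265 CPM in shTAZ tumours 1 to 4. A large part of this sum was Mmp9, with a mean of 120 CPM in shC and 56.0 CPM in shTAZ tumours. Mmp9 also stood at 60.4 to 106 CPM in the cultures. Of the 7 markers tested in tumours, 5 had a positive and 2 a negative log2 fold change. The sum was highest and lowest in the tumours with the most and the least Lcn2, but shTAZ tumour 4 had more of it than shTAZ tumour 2 and less Lcn2. The part of neutrophil RNA in the Lcn2 values was not tested.

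In culture Lcn2 stood at 12.7, 5.31 and 15.4 CPM in shC cells 1 to 3 and at 15.3, 15.1 and 49.1 CPM in shTAZ cells 1 to 3. Replicate 3 was highest in both lines, and shTAZ cells 1 and 2 lay within the shC range. In cells the lines differed in Lcn2 by a log2 fold change of 1.44 (SE 0.37), and 1.19 (SE 0.33) with the replicate block. The pairs differed by 0.25, 1.43 and 1.64 on the log2 scale, all in the same direction, and the alternatives ran from 0.66 to 2.10, positive in 17 of 17.

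Reads of macrophage genes were also counted in the cultures. C1qa, a complement gene of macrophages, had 37, 35 and 45 reads in shC cells 1 to 3 and 28, 28 and 44 reads in shTAZ cells 1 to 3. As CPM these were 5.48, 3.26 and 3.03 CPM in shC and 13.4, 11.8 and 5.20 CPM in shTAZ, higher in the shTAZ member of each pair, whose libraries were smaller. Csf1r, also a macrophage gene, stood at 2.22, 1.58 and 0.742 CPM in shC and 0.478, 4.62 and 0.827 CPM in shTAZ, lower in shTAZ in pair 1. All 5 macrophage markers tested in cells had a positive log2 fold change, which was 0.08 (SE 0.85) for Csf1r, and none was called. Lcn2 had 86, 57 and 229 reads in shC cells and 32, 36 and 416 reads in shTAZ cells. The count of Lcn2 over that of C1qa was 2.32, 1.63 and 5.09 in shC cells and 1.14, 1.29 and 9.45 in shTAZ cells. In tumours this ratio was at most 1.04, in shTAZ tumour 1, and at least 0.0450, in shTAZ tumour 3. It was 1.14 or more in every culture, and it was lower in shTAZ than in shC for pairs 1 and 2. For Slpi the ratio was 11.2, 14.5 and 6.11 in shC cells and 8.71, 7.68 and 10.98 in shTAZ cells, against 0.104 to 0.366 in tumours. Set against C1qa, Slpi too was lower in shTAZ than in shC for pairs 1 and 2 and higher for pair 3. C1qa counts changed less between cultures than library size did. The TMM-normalised library sizes in pairs 1 and 2 were 6748064 and 10740750 in shC against 2093856 and 2379308 in shTAZ. Both ratios therefore tend to be lower in a smaller library, so no direction between the lines is read from them. Of 11 markers of mature neutrophils 3 were listed for cultures. S100a8 stood at 1.04 CPM or less and Il1r2 at 1.65 CPM or less in every culture, while Mmp9 stood at 60.4 to 106 CPM. The part of reads from other cells or libraries in the culture values was not tested.

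Wfdc2 had the smallest spread between tumours of the 6 genes, with an SD of 30.9% of the mean in shC and 18.8% in shTAZ. It stood at 1669, 1318, 1247 and 2361 CPM in shC tumours 1 to 4 and at 1897, 1407, 1219.8 and 1559 CPM in shTAZ tumours 1 to 4. In tumours the log2 fold change was -0.12 (SE 0.22), with 0.14 and -0.31 within the prefixes, 0.11 without shC tumour 4 and -0.11 (SE 0.31) without the 3 tumours that stood apart. In culture it stood at 2515, 2482 and 1395 CPM in shC and at 3162, 3099 and 1339 CPM in shTAZ. Replicate 3 was lowest in both lines, and the spread between replicate numbers exceeded that between the lines. The lines differed by a log2 fold change of -0.08 (SE 0.19), and 0.20 (SE 0.18) with the replicate block.

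Muc1 was measured at low counts and did not pass the filter on low counts in either table. It stood at 6.23, 3.13, 2.59 and 9.39 CPM in shC tumours 1 to 4, from 149, 9, 6 and 26 reads. In shTAZ tumours 1 to 4 it stood at 12.3, 3.77, 1.25 and 2.12 CPM, from 39, 9, 2 and 5 reads. The Wilson 95% interval of the lowest value ran from 0.343 to 4.56 CPM and that of the highest from 9.02 to 16.9 CPM, for counting error only. Muc1 was thus highest in the tumours with the most Lcn2, shTAZ tumour 1 and shC tumour 4, and lowest in the tumour with the least, shTAZ tumour 3. Without the filter its log2 fold change was -0.10 (SE 0.67). In cultures 2, 5 and 1 reads were counted in shC and 1, 2 and 6 reads in shTAZ, with a log2 fold change of 1.27 (SE 1.44) without the filter. Within pairs 1, 2 and 3 shTAZ was higher by 0.30, 0.47 and 1.09 on the log2 scale, with counting intervals that overlapped in each pair, so a difference was not detectable at this depth.

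Ltf was listed for tumours only. It stood at 10.1, 33.8, 19.0 and 7.95 CPM in shC tumours 1 to 4 and at 14.9, 15.5, 8.76 and 7.22 CPM in shTAZ tumours 1 to 4. The highest value belonged to shC tumour 2, and the rest overlapped. Ltf had a log2 fold change of -0.58 (SE 0.47), -0.06 without shC tumour 2 and 0.31 (SE 0.44) without the 3 tumours that stood apart. Of 10 neutrophil granule markers, 6 were listed for tumours and none for cultures. Elane, Mpo, Ctsg and Ly6g were not listed. The 6 that were summed to 30.3, 109, 56.9 and 23.5 CPM in shC tumours 1 to 4 and 50.6, 19.3, 27.5 and 24.2 CPM in shTAZ tumours 1 to 4. This sum was highest in the tumour with the highest Ltf, but lowest in shTAZ tumour 2, which had the most Ltf of the shTAZ tumours. Prtn3, the gene of the granule protease proteinase 3 and itself part of the sum, was the gene of 9191 most like Ltf over the 8 tumours (Pearson r of log2 CPM 0.98). Of 10 markers of the milk-secreting mammary epithelium, where lactoferrin is also made, 2 were listed for tumours, Mfge8 and Lalba. They summed to 411 to 589.9 CPM in shC and 366 to 690.1 CPM in shTAZ tumours. Nearly all of this was Mfge8, at 411 to 587 CPM in shC and 363 to 688 CPM in shTAZ tumours. Mfge8 also stood at 331 to 430 CPM in shC cells and 391 to 563 CPM in shTAZ cells. Lalba stood at 2.93 CPM or less in every tumour. The part of either cell type in the Ltf values was not tested.

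**Figure D2:**
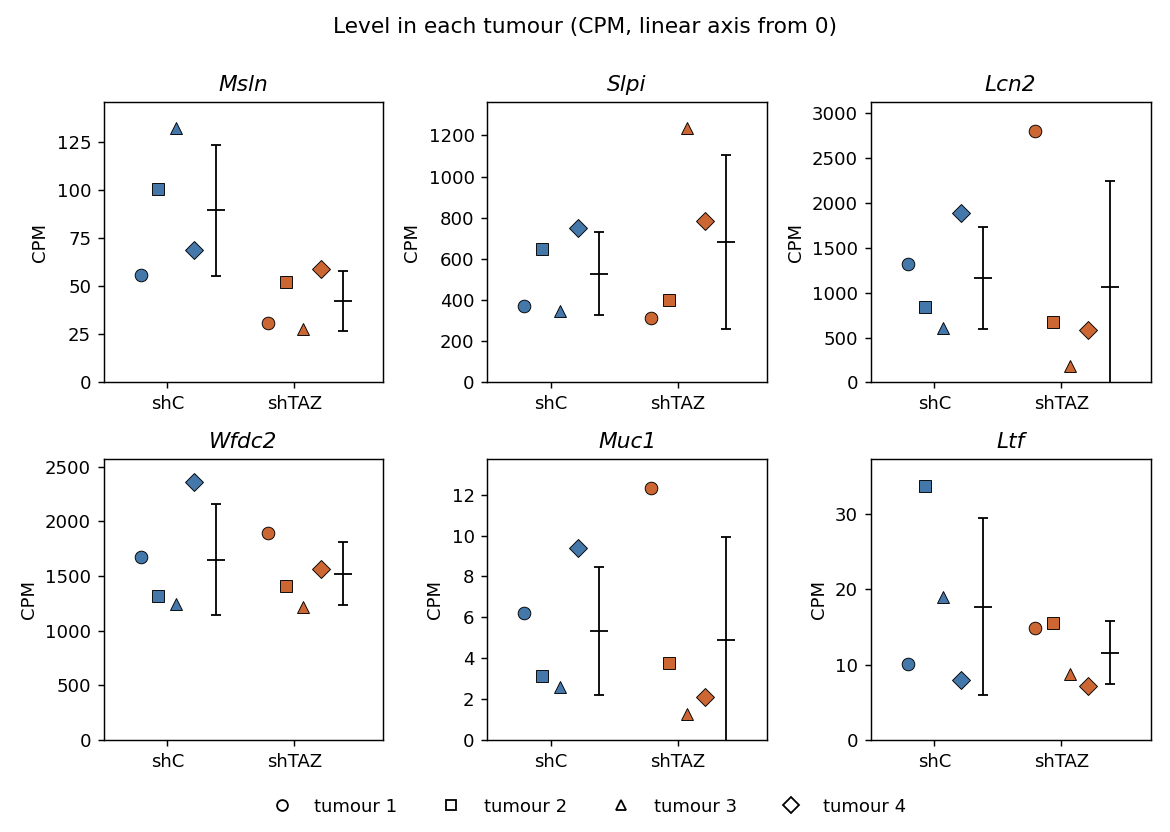
CPM (linear axis from 0) of the 6 members in 4 shC (blue) and 4 shTAZ (orange) tumours, with 1 symbol per tumour number and the mean with 1 SD beside the points, where a bar that would pass below 0 is cut at the axis. Msln is the member in which 3 of the 4 shTAZ tumours lie below every shC tumour, and Lcn2 spreads from 178 to 2808 CPM within shTAZ.

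For the other members the most similar genes were as follows, with the same measure and no test, since 8 tumours in 2 groups share depth and cell content. Sfrp1 (r 0.92), an antagonist of Wnt signalling, followed Msln, and Cd109 (0.98), which encodes a surface protein that binds TGF-beta, followed Slpi. Prr5 (0.97) and Arhgap8 (0.97) followed Lcn2, and Snrnp70 (0.97) and Kdf1 (0.97) followed Wfdc2. Over the 6 cultures the most similar genes were Large2 for Msln (0.99), Sfi1 for Slpi (0.99), Igtp for Lcn2 (0.99) and Mgat1 for Wfdc2 (1.00). With so few libraries a high r was common. Of 9824 genes, 267, 281, 48 and 638 had an r above 0.9 with Msln, Slpi, Lcn2 and Wfdc2. No gene was among the 3 most similar both in tumours and in cultures.

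Between tumours and cells of the same line, Lcn2 and Slpi stood higher and Msln lower in every tumour than in every culture, in both lines, and Wfdc2 overlapped. Muc1 also stood higher in every tumour, but with 1 to 6 reads per culture, so nothing is read from its order. Levels here are CPM on a scale common to all 14 libraries, from 1 fit. Of 9584 genes, 38.3% were called in shC (20.7% higher, 17.7% lower) and 30.4% in shTAZ (16.2% higher, 14.2% lower). Groups did not overlap for 42.5% of genes in shC (22.9% higher, 19.6% lower) and for 37.0% in shTAZ (20.1% higher, 16.9% lower), so that such differences were common among all genes. The state of the cells cannot be told apart from the host cells in the tumours, the duration of doxycycline or the separate handling of the 2 sets of libraries.

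Lcn2 had the largest difference of the members. The shC tumours averaged 1160 ± 570.4 CPM (SD, n = 4) against 11.5 ± 5.51 CPM (SD, n = 3) for shC cells, a log2 fold change of 6.65 (SE 0.92) or 100-fold. In shTAZ the means were 1060 ± 1185 CPM (SD, n = 4) and 27.1 ± 20.2 CPM (SD, n = 3), a log2 fold change of 5.23 (SE 0.86). Even the lowest tumour, shTAZ 3 at 177 CPM on the common scale, was above the highest culture.

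For Slpi, shC tumours averaged 526 ± 201 CPM (SD, n = 4) against 43.5 ± 22.2 CPM (SD, n = 3) for shC cells, a log2 fold change of 3.60 (SE 0.53). In shTAZ it was 2.94 (SE 0.51), and 1.98 (SE 0.46) without the 3 tumours that stood apart. Muc1 entered this fit only through the tumours, where it was high, and rests on 1 to 6 reads per culture, so nothing is read from its direction. Its fitted log2 fold change was 4.23 (SE 0.83) in shC and 2.82 (SE 0.85) in shTAZ, and 1.77 in shTAZ without shTAZ tumour 1.

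Mean Msln was 88.7 ± 33.5 CPM (SD, n = 4) for shC tumours against 442 ± 168 CPM (SD, n = 3) for shC cells. Its log2 fold change was -2.32 (SE 0.35), or 5.01-fold lower in tumours. In shTAZ the means were 42.4 ± 15.8 CPM (SD, n = 4) and 431 ± 115 CPM (SD, n = 3), a log2 fold change of -3.34 (SE 0.36) or 10.1-fold lower. Mean Wfdc2 was 1640 ± 513 CPM (SD, n = 4) for shC tumours against 2187 ± 634 CPM (SD, n = 3) for shC cells, a log2 fold change of -0.41 (SE 0.30). In shTAZ it was -0.76 (SE 0.30), and -1.07 (SE 0.28) without shTAZ cells 3.

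The directions of Lcn2, Slpi, Msln and Wfdc2 were the same in 14 of 14 alternatives in both lines. Markers of other cells moved with these differences, and epithelial markers moved unevenly. Macrophage markers, with CPM computed for tumours and cultures separately, summed to 3801 to 8873 CPM in tumours (8 genes listed) and 18.4 to 50.4 CPM in cultures (6 genes listed). Of 12 epithelial markers tested in shC, Epcam (1.97), Cldn4 (1.55) and Cldn7 (1.31) were called higher in tumours and Cdh1 (-1.61) and Krt7 (-1.19) lower. In shTAZ, Krt14 (3.83) was called higher and Krt19 (-2.86), Krt7 (-1.97), Cdh1 (-1.86) and Krt18 (-0.94) lower. Their part, and that of host cells, in the values of the members was not tested.

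**Figure D3:**
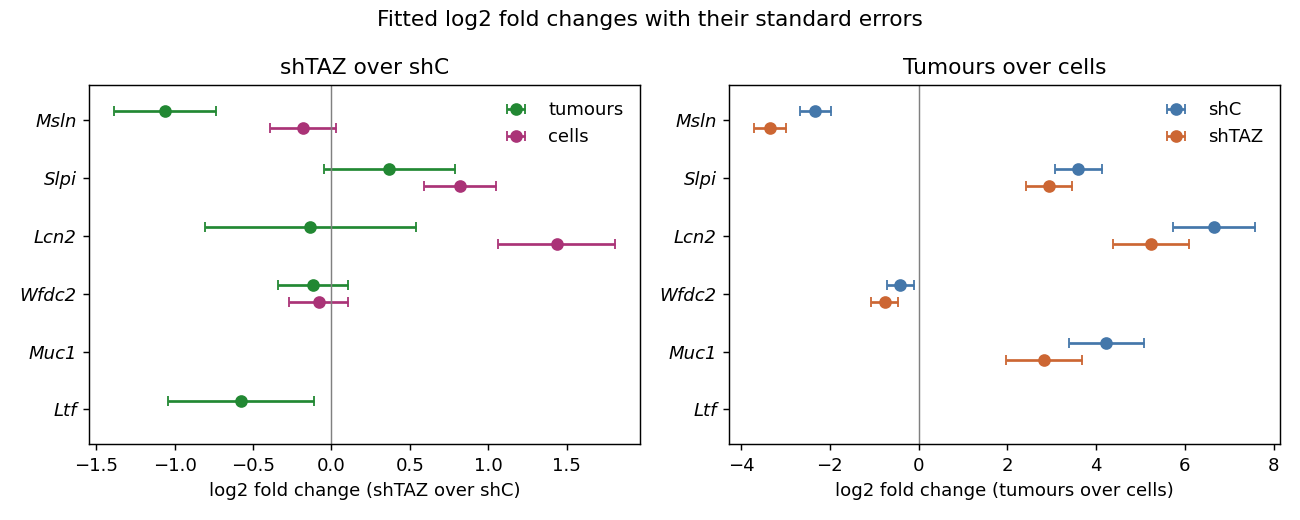
Fitted log2 fold changes of the members with 1 SE, shTAZ over shC on the left (tumours green, cells purple) and tumours over cells on the right (shC blue, shTAZ orange). On the left Msln in tumours lies at -1.06 and Slpi and Lcn2 in cells lie at 0.82 and 1.44, and on the right Lcn2 lies at 6.65 and 5.23 and Msln at -2.32 and -3.34. Muc1 on the left and Ltf in cells have no point, because they did not pass the filter or were not listed.

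Other secreted antimicrobial and acute-phase genes stood higher in tumours than in cells, as Lcn2 did. Of that list 7 passed the filter over both sets of libraries and all 7 were called higher in both lines, where 20.7% and 16.2% of all genes were. S100a8 (a calprotectin subunit, 0 to 8 reads per culture) and Saa3 (an acute-phase protein, 1 to 28 reads) had few reads in culture and were high in the tumours through which they passed the filter, so their direction is not counted as a result. The others were Lyz2 (lysozyme of macrophages and neutrophils, a log2 fold change of 8.94 in shC), C3 (complement, 3.37), Lgals3bp (2.80), Rnase4 (2.41) and Lgals9 (2.33). Of 14 genes for cytokine receptors and transcription factors that induce epithelial defence genes, 4 were called higher and 1 lower in shC tumours, a share near the 38.3% over all genes. Stat3, which acts below interleukin-6, was higher by 3.30 on the log2 scale, Il1r1, the interleukin-1 receptor, by 2.45, Bcl3, a nuclear NF-kB cofactor, by 2.02, and Cebpb, a C/EBP factor, by 1.18, while Nfkb2 fell by 1.04. In shTAZ tumours 5 were called higher, the same 4 and Il6ra, and Nfkb2 was again lower, beside 30.4% called over all genes.

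Of 6 other genes of iron handling tested, 2 were called higher and 1 lower in shC tumours, beside 38.3% over all genes. Lrp1 stood at a log2 fold change of 1.81. Trf (transferrin, 9.29) had 4 to 10 reads per culture and passed the filter through the tumours. Tfrc, the transferrin receptor (-2.23), had 1 to 14 reads per shC tumour and passed the filter through the cultures. The directions of Trf and Tfrc are therefore not counted as results. In shTAZ, Trf (8.18) and Lrp1 (1.45) were called higher and Tfrc (-0.81) was not called, beside 30.4% over all genes. Of the proteases grouped with SLPI and lipocalin-2, only Mmp9, Plau and Prss22 were tested, and none was called in either line. Elane and Ctsg, the genes of elastase and cathepsin G that SLPI inhibits, were not listed for tumours and not tested. Furin, which cuts the mesothelin precursor, was called higher in shTAZ tumours (0.90, edgeR adjusted p 0.0327) and stood at 0.66 in shC (edgeR adjusted p 0.0887). Between shTAZ and shC, none of the genes of these lists was called in tumours or in cells, where 0.0% and 0.0102% of all genes were called. In tumours 11 of the antimicrobial list were tested, with a median log2 fold change of 0.14, and 14 of the inducers were tested, 6 with a positive and 8 with a negative value.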

How the data were processed

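RNA was sequenced by bulk MARS-seq, a 3′ end method, so that a count does not scale with transcript length. The deposited raw counts per gene were made by the authors with the UTAP pipeline (cutadapt, STAR, HTSeq) on the mouse genome mm10 (GRCm38), and whether molecular identifiers were collapsed is not given in the sources used here. The deposited tables also hold normalised values (a signal from DESeq2 size factors) and log2 values made by the authors, batch-corrected with sva for cultures, and the fold changes and p-values of the authors' own comparisons. None of these columns was used. Listed genes had a total count of at least 6. Older gene symbols (598 for tumours, 33 for cultures) were replaced by current ones before the tables were joined.

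Raw counts were fitted with edgeR 4.0.16 in R 4.3.3 (quasi-likelihood F test, TMM, filterByExpr, Benjamini-Hochberg adjusted p under 0.05 over all genes tested). Cultures carried 1 surrogate variable (sva 3.50.0), and tumours over cells were taken from 1 fit of 14 libraries and 4 groups over the 11150 symbols in both tables. SE is the absolute log2 fold change over the root of F. Wilson intervals (95%) cover counting error only. Fits were tested on simulated data. Deviations of cultures with equal replicate numbers correlated at 0.31, 0.18 and 0.60. Those of shC cells 1 with shTAZ cells 2 and of shC cells 2 with shTAZ cells 1 correlated at 0.22 and 0.14. The values thus set only replicate 3 apart, and the pairing of replicates 1 and 2 rests on the numbers of the labels. The 6 members and all gene lists were chosen with earlier results of these data known, so p-values of the members are not reported. Genes named beside the members were the 3 with the highest Pearson r (log2 CPM, prior count 2), members of the lists past the threshold, and marker genes. Alternatives were other scalings, filters, DESeq2 1.42.0, batch terms and leaving out libraries.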

Additional observations from a re-analysis of the deposited data

How the results depend on the processing

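The number of genes called in tumours, shTAZ over shC, was 0 in all alternatives but DESeq2, which called 4. With the replicate number as a block, where same-numbered tumours correlated at 0.22, 0.12, 0.32 and -0.01 and were not taken as paired, 0 genes were called and Lcn2 stood at -0.69. In cells, with 1 gene called, the count was 5 with DESeq2, 0 without the TMM factor, 3 without a filter, 4 with at least 10 counts in every library, 0 without a surrogate variable and 0 with 1 from counts not scaled for depth. With the replicate block it was 6, and 32, 15 and 2 without pair 1, 2 or 3. Leaving out 1 culture gave 0 to 1 genes called. For shTAZ tumours over cells, with 2910 genes called, the count was 1921 with at least 10 counts in every library and 1524 without the 3 tumours that stood apart.

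Of the member values under alternatives, 283 stayed within the replicate spread or on the same side of the threshold. The 7 others were Slpi (-0.47) and Ltf (0.31) in tumours without those 3 tumours, Wfdc2 in shTAZ tumours over cells without shTAZ cells 3 (-1.07), and Muc1 there without shTAZ tumour 1 (1.77) or without shTAZ cells 1, 2 or 3 (2.70, 2.92 and 2.87). The cause was not tested. Muc1 was not past the filter, and has no value, with at least 10 counts in every library, nor in shTAZ with the libraries of the 2 groups alone. The block changed no call of a member other than Slpi in cells. In cultures Muc1 had 1 to 6 reads.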
